A study of Mus musculus with 18 samples.

Results

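The 7 genes described here encode 2 neurotrophins, Bdnf and Ntf3, the neurotrophin receptors Ngfr, Ntrk2 and Ntrk3, the sorting receptor Sort1, and Vgf, a secretory-granule protein whose gene is induced by neurotrophins. They were taken by gene symbol from all 7 pairwise tables the authors deposited, each of which lists 37980 genes. Each symbol had 1 row in each table, and each was tested in all 7 tables, which gives 49 member tests.

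Neurotrophins are secreted proteins made from larger precursors. The mature forms bind Trk receptor tyrosine kinases: BDNF binds TrkB, the product of Ntrk2, and NT-3, the product of Ntf3, binds mainly TrkC, the product of Ntrk3. The precursors bind p75NTR, the product of Ngfr, together with sortilin, the product of Sort1. In the striatum, much of the BDNF protein arrives in axons from neurons of the cortex and midbrain, and p75NTR is best known from cholinergic neurons of the basal forebrain.

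RNA was sequenced from the nucleus accumbens, the ventral striatum, of mice labelled Rgs9-2 knockout (KO) or Rgs9-2 wild type (WT), all on a C57BL/6 background. Under each label there were naive mice, mice with spared nerve injury (SNI) that received saline, and mice with SNI that received the tricyclic antidepressant desipramine (DMI) chronically at 15 mg/kg intraperitoneally, 2 times a day. SNI is a model of neuropathic pain in which branches of the sciatic nerve are cut. Each of these 6 groups had 3 samples, which the design text calls biological replicates. Age and sex of the mice are not used here. The labels name no injection for naive mice, so injury and saline injection differ together between injured saline and naive groups and cannot be told apart. Each group was sequenced in 1 lane of its own, and the effects of lane and group cannot be told apart either.

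The targeted gene went against the labels. Rgs9 was listed at 217 FPKM in naive mice labelled KO against 120 FPKM in naive mice labelled WT in the authors' deposited table, and was higher under the KO label in the injured saline and desipramine groups too (log2 fold changes 0.77 and 0.55, q = 0.0170 and 0.00818). The tables give 1 value for the whole gene, which does not show the exons covered. Every difference between genotypes below is therefore a difference between labels. Of 12 markers of medium spiny neurons, the main cells of the striatum, none was under 1 FPKM in any group, and they summed to between 2576 and 4176 FPKM. Rgs9 itself is 1 of these 12. Markers of choroid plexus, which lies outside the nucleus accumbens, summed to between 28.8 and 1464 FPKM, with the highest sum in the naive group labelled WT. The naive group labelled WT stood apart: the median standard error of a log2 fold change was 0.574 to 0.581 in the 2 tables that hold it and 0.293 to 0.377 in the other 5.

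FPKM, a fragment count scaled by transcript length and library size, is per length, so levels of different genes can be set side by side. Ntrk2 had 77.0 to 117 FPKM over the groups, Vgf 67.2 to 102 FPKM and Sort1 58.6 to 70.9 FPKM in the authors' deposited tables. Ntrk3 had 13.5 to 21.5 FPKM. Ngfr was far lower, with 1.44 to 5.70 FPKM, as were Bdnf with 0.897 to 2.48 FPKM and Ntf3 with 0.265 to 0.449 FPKM. The receptor for BDNF was thus listed at far higher levels than Bdnf itself in every group. The tables hold 1 value per gene and group and no value per sample, so the overlap of samples between groups is not shown, and all errors below come from the authors' test.

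**Figure D1:**
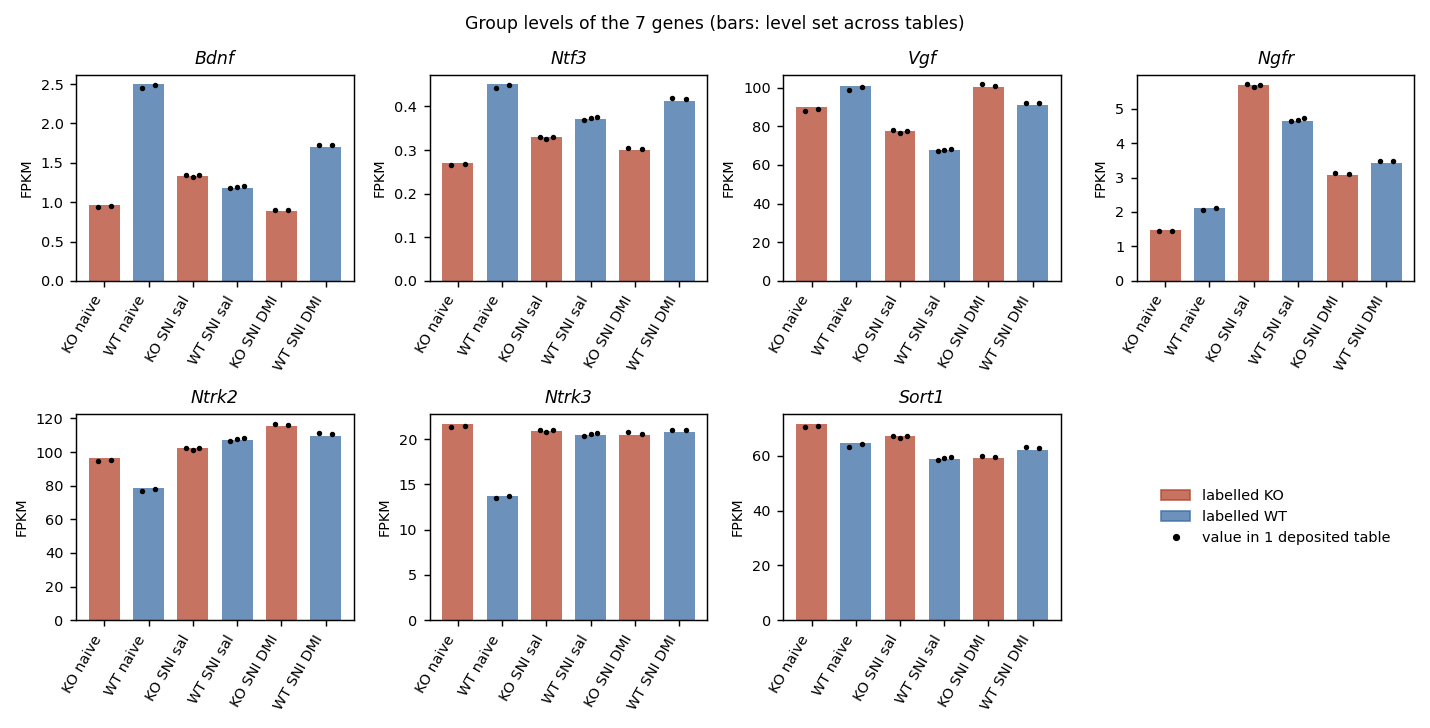
Levels of the 7 genes in FPKM (y axis) in the 6 groups (x axis), labelled KO left of labelled WT within naive, injured saline (SNI sal) and injured desipramine (SNI DMI) groups. Bars are group levels set on 1 scale across tables and points are the FPKM values in the authors' deposited tables; Ngfr was lowest in both naive groups (1.44 to 2.11 FPKM) and Bdnf highest in the naive group labelled WT (2.45 to 2.48 FPKM). No error bars are drawn because no value per sample was used.

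Calls were made at a deposited q of at most 0.05. In each of 5 comparisons, 1 of the 7 genes was called. Bdnf was called between labels in naive mice, where 1.44% of all tested genes were called, and in desipramine-treated mice, where 0.859% were. Ngfr was called with injury in mice labelled KO (0.459% of all tested genes called) and labelled WT (1.42%), and with desipramine in mice labelled KO (1.05%). By Cuffdiff, none was called between labels in injured saline mice (0.329%), where none had an unadjusted p under 0.05, or with desipramine in mice labelled WT (0.202%), where 2 higher and 1 lower had one. In all, 5 of the 49 member tests were called, on 2 genes. Ntf3, Ntrk2, Ntrk3, Sort1 and Vgf were called in none of the 7 comparisons by Cuffdiff, with q between 0.0962 and 1. Their unadjusted p was under 0.05 for Ntrk3 once and for Vgf 3 times, as given below.

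Ngfr encodes p75NTR, a death-domain receptor that binds all neurotrophins and, with sortilin, their precursors. It lies on chromosome 11 at 95430131-95449049 (mm9). After injury it rose under both labels. In mice labelled KO it was listed at 5.62 FPKM in the injured saline group against 1.45 FPKM in the naive group in the authors' deposited table, 3.86 times the naive level. That log2 fold change was 1.95 ± 0.34 (standard error; 95% interval 1.28 to 2.62; q = 0.0128). In mice labelled WT it was listed at 4.63 FPKM in the injured saline group against 2.11 FPKM in the naive group in the authors' deposited table, 2.2 times the naive level. That log2 fold change was 1.14 ± 0.52 (95% interval 0.11 to 2.16; q = 0.0258). The rise was larger under the KO label by 0.81 ± 0.63 on the log2 scale, a difference that did not pass (95% interval -0.41 to 2.04; adjusted p = 1). The 2 injury comparisons share no samples. In bulk tissue, fewer cells of a type and less RNA per cell cannot be told apart.

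Markers of other cells moved in the same injury contrasts. Labelled KO, all 12 medium spiny neuron markers had negative log2 fold changes (median -0.50, 4 called lower), and 2 of 9 markers of pericytes and smooth muscle were called lower. Of 8 tested markers of septal and hypothalamic neurons there, 1 was called higher and 2 lower (median -0.73). Labelled WT, no medium spiny neuron marker was called by Cuffdiff (median -0.04, none with an unadjusted p under 0.05), while 9 of 12 choroid plexus markers were called lower (median -2.72). Of 9 tested septal and hypothalamic markers labelled WT, 7 were positive (median 0.65). None of these was called by Cuffdiff, 5 with an unadjusted p under 0.05 and higher. The part of these cells in the rise of Ngfr was not tested.

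Ngfr fell with desipramine in injured mice labelled KO. It was listed at 3.10 FPKM in the KO desipramine group against 5.69 FPKM in the KO saline group in the authors' deposited table, 0.544 times the saline level. The log2 fold change was -0.88 ± 0.31 (95% interval -1.48 to -0.28; q = 0.00739). In mice labelled WT, Ngfr had 3.48 FPKM with desipramine and 4.72 FPKM with saline in the authors' deposited table, a log2 fold change of -0.44 ± 0.28 that did not pass (unadjusted p = 0.00870, q = 1). The difference between those drug responses, labelled KO minus labelled WT, was -0.44 ± 0.42 (95% interval -1.26 to 0.38; adjusted p = 1). The KO saline group enters both the rise with injury and the fall with desipramine, so a high value in that group alone would give both. In this drug contrast 3 of 8 tested septal and hypothalamic markers were called higher (median 0.98), 2 of 9 pericyte and smooth muscle markers were called higher, and no medium spiny neuron marker was called by Cuffdiff (median -0.04, none with an unadjusted p under 0.05). Their part in the fall of Ngfr was not tested. No deposited table sets a desipramine group beside a naive group. On levels set across tables, Ngfr with desipramine (3.09 FPKM labelled KO, 3.43 FPKM labelled WT) lay above both naive groups (1.47 FPKM labelled KO, 2.11 FPKM labelled WT), with no test.

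The order of Ngfr levels ran downward through KO saline, WT saline, WT desipramine, KO desipramine, WT naive and KO naive. All neighbouring pairs but KO desipramine and WT naive have a deposited table, and none of these pairs differed at the threshold. Between labels, the log2 fold change of KO over WT was 0.29 ± 0.32 with saline, -0.15 ± 0.27 with desipramine and -0.52 ± 0.53 in naive mice in the authors' deposited tables. The steps that passed were those with injury, and the step with desipramine under the KO label.

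On a normal p from the deposited test statistic the rise of Ngfr in mice labelled KO was still called (adjusted p = 4.77e-06), while the rise labelled WT (adjusted p = 1) and the fall with desipramine (adjusted p = 0.497) were not. At q of at most 0.01, only the fall with desipramine was called among these 3. This does not rank that fall above the rise labelled KO. Both had the lowest Cuffdiff p-value in their tables (5e-05). In the injury table labelled KO that p-value gave q = 0.0128, so no gene there could pass 0.01.

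Markers of cholinergic neurons were read beside Ngfr, because p75NTR is best known from cholinergic neurons of the basal forebrain. Of 9 such symbols 8 had a row, among them Chat, Slc5a7, Isl1, Zic4 and Ache. In injured saline against naive mice labelled KO, 7 of 8 had a positive log2 fold change (median 0.33) and none was called by Cuffdiff, 2 with an unadjusted p under 0.05. In the same contrast labelled WT, all 8 were positive (median 0.69) and 1, Slc5a7, the choline transporter, was called in the authors' deposited table (0.93 ± 0.42, q = 0.0408). Chat, which makes acetylcholine, had log2 fold changes of 0.37 ± 0.25 labelled KO and 0.68 ± 0.45 labelled WT in those tables. Their summed level was 115 FPKM in KO saline, 98.1 FPKM in KO naive, 118 FPKM in WT saline and 79.8 FPKM in WT naive mice. It was 107 FPKM in KO desipramine and 110 FPKM in WT desipramine mice. The marker sum thus moved less than Ngfr in each injury contrast, and 1 of the 8, Gbx2, stayed under 1 FPKM. The highest log2 fold change of a single marker was 0.47 labelled KO and 1.07 labelled WT, beside 1.95 and 1.14 for Ngfr. With desipramine labelled KO the median of the markers was -0.13, with 2 of 8 at an unadjusted p under 0.05 and lower. Slc5a7 was also called higher in KO naive over WT naive mice (0.93 ± 0.41, q = 0.0391), where Ngfr was not. The part of cholinergic cells in the change of Ngfr was not tested. Markers of Schwann and olfactory ensheathing cells, other cells that can carry p75NTR, summed to between 1050 and 1199 FPKM over the groups. Of the 8, none was called with injury labelled KO by Cuffdiff (1 with an unadjusted p under 0.05), and with injury labelled WT Npy was called lower (-1.25). Frzb was called lower in KO naive over WT naive mice (-1.82) and in KO desipramine over WT desipramine mice (-1.25), and Npy in the first of these (-1.0).

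The genes closest to Ngfr over the 6 groups were ranked by the root mean square difference of log2(FPKM + 1), each gene centred on its own mean, among 12111 genes. The 5 closest were Nhlrc4, Gbx1, Sema3c, Chrm2 and Ebf4, at 0.233 to 0.273 log2 units from Ngfr. The recovered standard errors of Nhlrc4 were 32.5 to 78.7 log2 units, so its place rests on values with almost no precision. Gbx1 is a homeobox gene, Sema3c a secreted axon guidance protein, Chrm2 a muscarinic acetylcholine receptor and Ebf4 a transcription factor gene. Gbx1 was called higher in injured saline over naive mice labelled KO (1.21 ± 0.36), as were Ebf4 (0.87 ± 0.33) and Sema3c (0.77 ± 0.32), in the authors' deposited table. None of the 5 had a rise as large as that of Ngfr there. Likeness over 6 group values that share libraries is a description, and 2 of the 5 genes were the same with a pseudocount of 0.1.

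**Figure D2:**
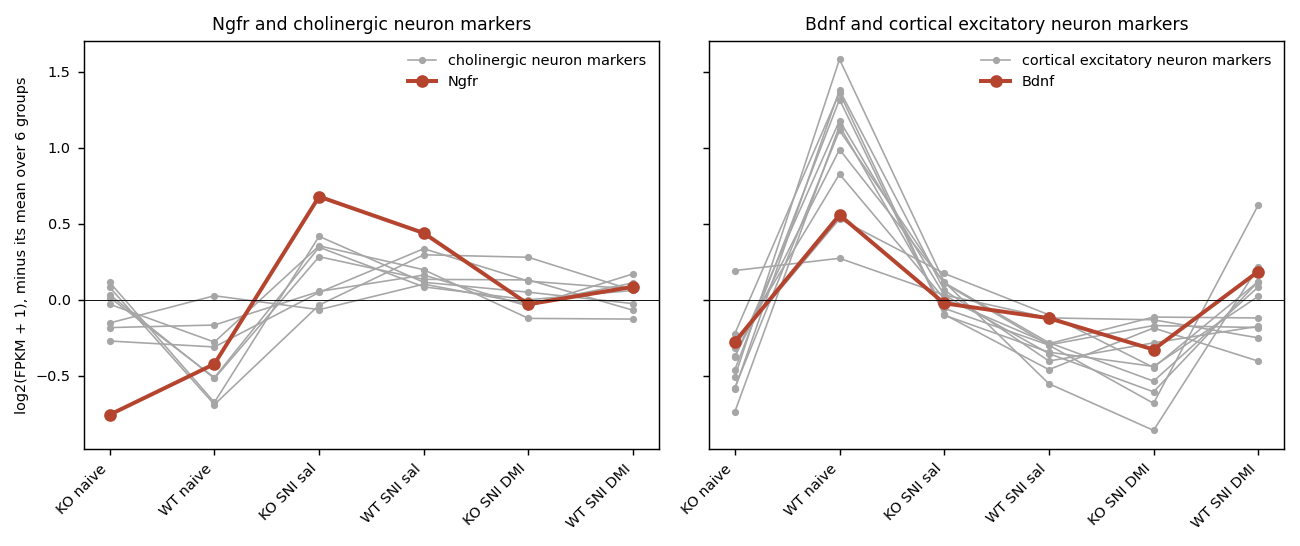
Ngfr with 8 cholinergic neuron markers (left) and Bdnf with 11 cortical excitatory neuron markers (right) in the 6 groups (x axis), as log2(FPKM + 1) minus the mean of each gene over the groups (y axis); coloured lines are Ngfr and Bdnf, grey lines the markers. Ngfr was lowest in the naive group labelled KO while the cholinergic sum was lowest in the naive group labelled WT (79.8 FPKM), and Bdnf and the cortical sum (413 FPKM) were both highest in the naive group labelled WT.

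Bdnf encodes brain-derived neurotrophic factor, the main TrkB ligand. It lies on chromosome 2 at 109514856-109567164 (mm9). In naive mice it was lower under the KO label: it was listed at 0.943 FPKM in KO naive mice against 2.45 FPKM in WT naive mice in the authors' deposited table, 0.386 times the WT level. The log2 fold change was -1.37 ± 0.59 (95% interval -2.54 to -0.21; q = 0.0134). With desipramine it was lower under the KO label again, at 0.905 FPKM in KO mice against 1.72 FPKM in WT mice in the authors' deposited table. That log2 fold change was -0.93 ± 0.32 (95% interval -1.55 to -0.31; q = 0.00818). In injured saline mice, KO had 1.35 FPKM and WT 1.19 FPKM in the authors' deposited table (0.18 ± 0.39, q = 1). Both called values are lower under the KO label and rest on different mice, and neither was called on a normal p from the test statistic (adjusted p = 1 in naive mice and 0.479 with desipramine).

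The changes of Bdnf with injury and with the drug had opposite signs under the labels, and none of the 4 passed. With injury it was listed at 1.32 FPKM in KO saline against 0.95 FPKM in KO naive mice (0.48 ± 0.40, unadjusted p = 0.0676) and at 1.18 FPKM in WT saline against 2.48 FPKM in WT naive mice (-1.08 ± 0.57, unadjusted p = 0.00230, q = 0.113) in the authors' deposited tables. With desipramine it was listed at 0.897 FPKM against 1.34 FPKM with saline labelled KO (-0.58 ± 0.38, unadjusted p = 0.0156) and at 1.73 FPKM against 1.20 FPKM with saline labelled WT (0.52 ± 0.33, unadjusted p = 0.0128) in the authors' deposited tables. The difference of the injury responses, labelled KO minus labelled WT, was 1.55 ± 0.70 (95% interval 0.19 to 2.91), and that of the drug responses was -1.11 ± 0.50 (95% interval -2.09 to -0.13). Neither passed adjustment over the genes tested (adjusted p = 1 each), and both use the same 2 saline groups. Bdnf and Ntf3 were under 1 FPKM in a group, so their differences were computed among genes of at least 0.1 FPKM. Among genes of at least 1 FPKM, 0.132% of 13633 differed between injury responses and 0.145% of 13827 between drug responses, with none of the 5 other members among them at an adjusted or an unadjusted p of 0.05.

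Bdnf in the naive group labelled WT stood highest of all 6 groups, followed by WT desipramine, KO saline, WT saline, KO naive and KO desipramine. Of the neighbours in this order, only KO saline and WT saline have a deposited table, and they did not differ at the threshold. The same group was highest in markers of cortical excitatory neurons, cells that lie outside the nucleus accumbens and transcribe Bdnf. Their 11 markers summed to 155 FPKM in KO naive mice and 413 FPKM in WT naive mice, and to 191 FPKM in KO saline and 144 FPKM in WT saline mice. With desipramine they summed to 130 FPKM in KO and 194 FPKM in WT mice. None of the 11 was at 0 in any group.

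Between labels, 9 of the 11 were called lower in KO naive over WT naive mice (median log2 fold change -2.0) and 4 in KO desipramine over WT desipramine mice (median -0.54) in the authors' deposited tables, the 2 comparisons in which Bdnf was called. All 11 were negative in the first of these, while 7 were negative and 4 positive (up to 0.44) in the second. In injured saline mice none was called by Cuffdiff (median 0.57), 4 with an unadjusted p under 0.05 and higher. Slc17a7, the vesicular glutamate transporter of cortical neurons, had group levels of 52.5 FPKM in KO naive and 226 FPKM in WT naive mice. With injury, 2 of the 11 were called higher labelled KO (median 0.71) and 9 lower labelled WT (median -1.83). With desipramine, 4 were called lower labelled KO (median -0.42) and 2 higher labelled WT (median 0.43). In each of the 7 contrasts the median of these markers had the sign of the log2 fold change of Bdnf, in contrasts that share groups. Other markers moved in the 2 contrasts in which Bdnf was called. In naive mice, KO over WT, 4 of 12 medium spiny neuron markers, Rgs9 among them, were called higher (median 0.73). There 4 of 11 GABA interneuron markers were called lower and 2 of 9 pericyte and smooth muscle markers higher. With desipramine, KO over WT, 8 of 12 choroid plexus markers (median 2.35) were called higher, and 2 GABA interneuron and 2 septal and hypothalamic markers lower. The 1 medium spiny neuron marker called higher there was Rgs9, the targeted gene. The part of cortical tissue and of these other cells in the differences of Bdnf was not tested.

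The genes closest to Bdnf over the 6 groups, by the measure used for Ngfr, were Arhgef25, Ccne1, Dlgap1, Chrd and Dpp7, at 0.0316 to 0.0607 log2 units. Arhgef25 encodes a guanine nucleotide exchange factor, Ccne1 a cyclin, Dlgap1 a postsynaptic scaffold protein, Chrd the BMP antagonist chordin and Dpp7 a dipeptidyl peptidase. Arhgef25 was called lower in KO naive over WT naive mice (-0.95 ± 0.42) and in KO desipramine over WT desipramine mice (-0.50 ± 0.19) in the authors' deposited tables. Chrd was called lower in the same 2 comparisons (-1.20 ± 0.58 and -0.82 ± 0.30), and Dlgap1 in the first (-0.93 ± 0.43). A Pearson correlation of at least 0.95 with Bdnf over the 6 groups was found for 273 genes, against 14 genes with Ngfr. With a pseudocount of 0.1, 1 of the 5 genes was the same.

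Ntf3 encodes NT-3 and lies on chromosome 6 at 126051430-126116762 (mm9). It was the lowest of the 7 genes in each group. It was listed at 0.265 FPKM in KO naive and 0.441 FPKM in WT naive mice in the authors' deposited table (-0.74 ± 0.87, q = 0.762). Its standard errors, 0.63 to 0.87 on the log2 scale, were the largest among the 7 genes in each table, so differences within those errors were not detectable at this level. With saline it had 0.331 FPKM labelled KO and 0.374 FPKM labelled WT, and with desipramine 0.305 FPKM labelled KO and 0.417 FPKM labelled WT, in the authors' deposited tables. Its level was lower under the KO label at all 3 conditions, within its error each time.

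Vgf encodes a granin-like precursor of neuropeptides that neurotrophins induce. It lies on chromosome 5 at 137506164-137509221 (mm9). With desipramine it was listed at 101 FPKM in KO desipramine against 77.7 FPKM in KO saline mice (0.37 ± 0.21, unadjusted p = 0.00400, q = 0.229), and at 92.2 FPKM in WT desipramine against 68.4 FPKM in WT saline mice (0.43 ± 0.20, unadjusted p = 0.000250, q = 0.0962), in the authors' deposited tables. Those 2 comparisons share no samples, and their difference, labelled KO minus labelled WT, was -0.06 ± 0.29 (95% interval -0.62 to 0.50). Vgf was called in mice labelled WT when p-values were adjusted over all 7 tables together (adjusted p = 0.0368). With injury Vgf had 76.7 FPKM in KO saline against 88.8 FPKM in KO naive mice (-0.21 ± 0.21) and 67.2 FPKM in WT saline against 100.5 FPKM in WT naive mice (-0.58 ± 0.37, unadjusted p = 0.0180, q = 0.348) in the authors' deposited tables. Levels with saline were thus the lowest under each label, though no step passed on the deposited q, and the saline groups enter both contrasts. Between labels the log2 fold change of KO over WT was -0.16 ± 0.36 in naive, 0.20 ± 0.23 in saline and 0.14 ± 0.17 in desipramine mice in the authors' deposited tables.

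Ntrk2 encodes TrkB and lies on chromosome 13 at 58907956-59235331 (mm9). It was listed at 94.7 FPKM in KO naive against 77.0 FPKM in WT naive mice in the authors' deposited table (0.30 ± 0.47, q = 0.921). In the other 4 groups it had 101 to 117 FPKM, and its remaining log2 fold changes lay between -0.07 and 0.45. Ntrk3 encodes TrkC and lies on chromosome 7 at 85337247-85723294 (mm9). It was listed at 21.3 FPKM in KO naive against 13.5 FPKM in WT naive mice in the authors' deposited table (0.66 ± 0.54, unadjusted p = 0.0290, q = 0.406). Its levels in the other 4 groups, 20.3 to 21.1 FPKM, were close to that of KO naive mice, so WT naive mice alone were low. With injury labelled WT, Ntrk3 had a log2 fold change of 0.57 ± 0.55 (unadjusted p = 0.0609) in the authors' deposited table, against the same naive group.

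Sort1 encodes sortilin, a sorting receptor that takes up precursor neurotrophins with p75NTR and directs BDNF to the regulated secretory pathway. It lies on chromosome 3 at 108086815-108164429 (mm9) and was listed at 70.4 FPKM in KO naive and 63.4 FPKM in WT naive mice in the authors' deposited table. Its 7 log2 fold changes lay between -0.18 and 0.19, each smaller than its standard error. An antisense gene, Gm12523, overlaps Sort1, and strand use in counting is not given in the sources used here, so reads of both may be mixed. While Ngfr rose 3.86-fold with injury in mice labelled KO, the receptors that act with it had log2 fold changes near 0 in the same table: 0.08 ± 0.28 for Ntrk2, -0.05 ± 0.25 for Ntrk3 and -0.09 ± 0.31 for Sort1.

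**Figure D3:**
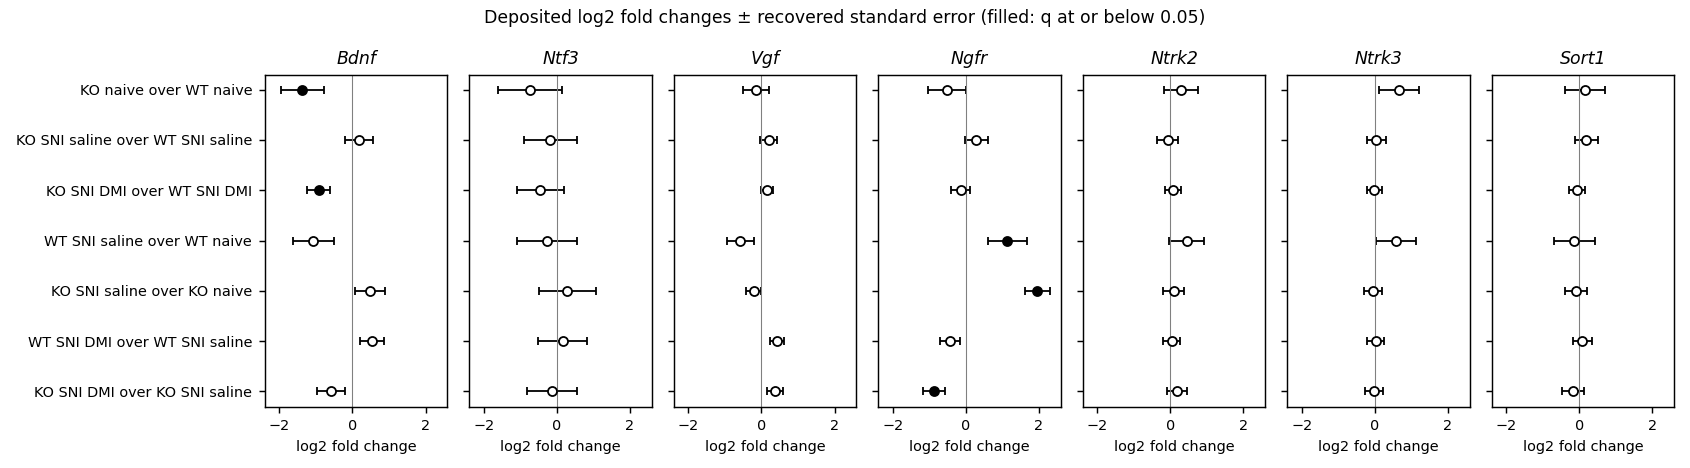
Log2 fold changes (x axes) of the 7 genes, 1 panel each, in the 7 comparisons (y axis), from the authors' deposited tables; bars are standard errors recovered from the test statistic and filled points have a q of at most 0.05. Ngfr was called higher with injury under both labels (1.95 and 1.14) and lower with desipramine labelled KO (-0.88), and Bdnf was called lower under the KO label in naive (-1.37) and desipramine mice (-0.93).

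Other genes of the pathway were read from 11 lists that hold 170 genes besides the 7, of which 165 were tested in each table. Ntf5, which encodes the ligand NT-4, had group levels of 0.0112 to 0.0878 FPKM and was not tested by Cuffdiff. The sortilin relatives Sorl1, Sorcs1, Sorcs2 and Sorcs3 were not called in any of the 7 tables by Cuffdiff. Sorcs1 and Sorcs3 had an unadjusted p under 0.05 in KO naive over WT naive mice in the authors' deposited table (0.70 ± 0.47, unadjusted p = 0.0106, for Sorcs1 and 0.49 ± 0.42, unadjusted p = 0.0374, for Sorcs3).

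Among 22 partners and effectors of p75NTR, Rtn4r was the one called most often. It encodes the Nogo receptor, which signals through p75NTR on axons. It was called lower in KO naive over WT naive mice (-1.84 ± 0.48), in KO desipramine over WT desipramine mice (-1.29 ± 0.26), with injury labelled WT (-1.97 ± 0.52) and with desipramine labelled KO (-0.93 ± 0.34), and higher with desipramine labelled WT (0.96 ± 0.30), in the authors' deposited tables. In naive mice it was listed at 4.13 FPKM labelled KO against 14.8 FPKM labelled WT. Where Ngfr rose with injury labelled WT, Rtn4r fell, and where Ngfr rose labelled KO, Rtn4r had 0.47 and was not called. These directions are those of Bdnf and of the medians of the cortical excitatory markers above, and their part in the values of Rtn4r was not tested. Lingo1, a partner of Rtn4r and p75NTR, was called lower in KO desipramine over WT desipramine mice (-0.41 ± 0.18). The other 20 genes of the list were not called in any table by Cuffdiff.

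Of 14 regulators of Bdnf transcription, Npas4 and Mef2c were called. Npas4, an activity-induced transcription factor that binds Bdnf promoters, was listed at 6.94 FPKM in KO saline against 3.50 FPKM in KO naive mice in the authors' deposited table, and was called (0.99 ± 0.29, q = 0.0128). It was also called higher in KO saline over WT saline mice (0.71 ± 0.29) and lower in KO desipramine over KO saline mice (-0.88 ± 0.27). All 3 comparisons contain the KO saline group, in which Npas4 was highest. Mef2c was called lower with desipramine labelled KO (-0.68 ± 0.24), the contrast in which Ngfr fell.

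The 14 genes known to be induced by BDNF gave calls of 2 kinds. The first were immediate early genes. Arc and Nr4a1 were called higher in KO saline over WT saline mice (0.68 ± 0.27 and 0.74 ± 0.24), and Fos was called higher in KO saline over KO naive mice (0.90 ± 0.37) in the authors' deposited tables. Egr3 was called lower in that last contrast (-0.64 ± 0.25). Arc and Fos were called lower with desipramine labelled KO (-0.52 ± 0.24 and -0.79 ± 0.36), and Nr4a1 higher with desipramine labelled WT (0.53 ± 0.21). In KO saline over WT saline mice all 14 had positive log2 fold changes, with a median of 0.41 against 0.00 over all tested genes.

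The other calls were mainly of neuropeptide genes. Npy, Sst and Cort were called lower in KO naive over WT naive mice (-1.0 ± 0.27, -1.01 ± 0.29 and -1.98 ± 0.50) and with injury labelled WT (-1.25 ± 0.28, -1.15 ± 0.31 and -1.87 ± 0.58) in the authors' deposited tables. Nptx2, a neuronal pentraxin, was called lower in the second of these (-1.07 ± 0.42). Npy was listed at 144 FPKM in KO naive and 288 FPKM in WT naive mice. Both comparisons contain the naive group labelled WT. Of all 14 genes, 9 were positive in KO naive over WT naive mice (median 0.26), 4 higher and 3 lower at an unadjusted p under 0.05. With injury labelled WT, 12 of the 14 were negative (median -0.35). In KO desipramine over WT desipramine mice 12 were positive (median 0.20), 6 higher and 1 lower at an unadjusted p under 0.05. None of the 14 was called there by Cuffdiff. Npy and Sst also mark GABA interneurons, and of 11 such markers 4 were called lower in KO naive over WT naive mice and 3 with injury labelled WT, Pvalb among them (-2.52 and -1.26). The other markers of this list did not all follow: 4 of the 11 were positive in the first contrast (median -0.05) and 6 in the second (median 0.09, 2 with an unadjusted p under 0.05 and higher). The part of interneuron number or of the tissue taken was not tested.

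None of 70 intracellular signalling genes (Trk adaptors, the ERK and PI3K cascade and feedback inhibitors) was called in any of the 7 tables by Cuffdiff. Of their 490 tests, 13 were higher and 7 lower at an unadjusted p under 0.05, 4.08% against 5.36% over all tested genes. By list the share was 2.98% for Trk adaptors, 3.12% for the ERK and PI3K cascade and 8.16% for feedback inhibitors. Of the 14 tested genes of neurotrophin processing and release none was called. Of their 98 tests, 4 were higher and 4 lower at an unadjusted p under 0.05, 8.16% against the same 5.36%. The 6 other granins, secretory-granule proteins related to Vgf, were also not called by Cuffdiff, but 9 of their 42 tests (21.4%) had an unadjusted p under 0.05. Of the 6, 5 had negative log2 fold changes in KO naive over WT naive mice (median -0.51) and 5 with injury labelled WT (median -0.46), with 3 lower at an unadjusted p under 0.05 in each. Both contrasts hold the naive group labelled WT.

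Of 20 genes of other neurotrophic factors and their receptors, 1 was called once: Ret, the GDNF receptor kinase, was listed at 3.91 FPKM in WT saline against 1.57 FPKM in WT naive mice in the authors' deposited table (1.31 ± 0.55, q = 0.0130).

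Counted over all 11 lists, 4 of 165 genes were called in KO naive over WT naive mice, 3 in KO saline over WT saline, 2 in KO desipramine over WT desipramine, 3 with injury labelled KO, 6 with injury labelled WT, 5 with desipramine labelled KO and 2 with desipramine labelled WT. That is 2.42% of the genes against 1.44% of all tested genes in the first of these, 1.82% against 0.329% in the second and 1.21% against 0.859% in the third. With injury it is 1.82% against 0.459% labelled KO and 3.64% against 1.42% labelled WT, and with desipramine 3.03% against 1.05% labelled KO and 1.21% against 0.202% labelled WT. The median log2 fold change over the 165 genes lay between -0.04 and 0.09 in the 7 tables, against -0.03 to 0.01 over all tested genes, with values of both signs in each table. The lists were chosen with earlier results of these data known, so these counts are a description.

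**Figure D4:**
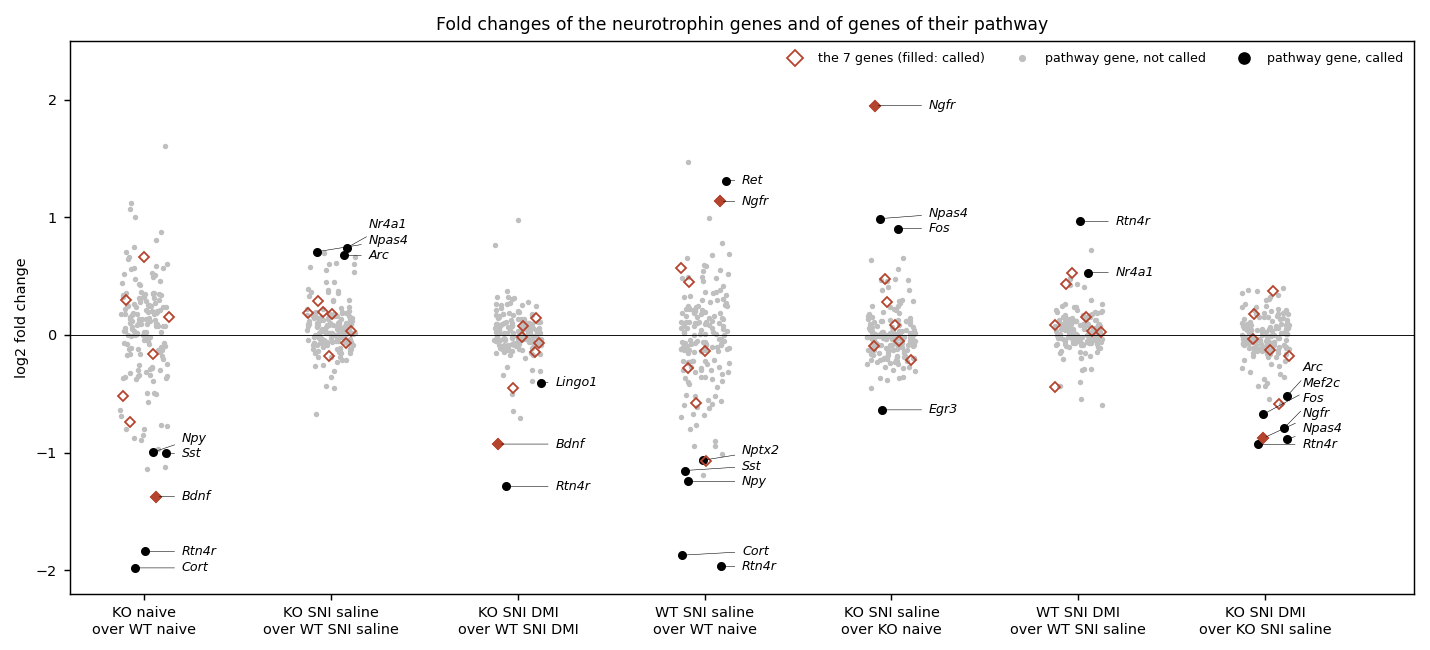
Log2 fold changes (y axis) in the 7 comparisons (x axis) of the 7 genes (diamonds, filled where called) and of 165 other genes of the pathway (grey where not called, black and named where called), from the authors' deposited tables. Ngfr had the highest value in the injury comparison labelled KO (1.95), and Rtn4r and Cort were lowest in both comparisons that hold the naive group labelled WT.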

How the data were processed

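Per the labels' protocols, nucleus accumbens RNA (Trizol, then RNeasy Micro columns) went into TruSeq libraries that were run on a HiSeq instrument. Titles and characteristics gave 6 groups of 3 samples. The submitters' processing notes name Bowtie2 2.1.0, TopHat2 2.0.9, Cuffdiff 2.1.1 and the builds mm9 and NCBIM37; the sources used here give no options, annotation release or strand setting. Deposited were 7 tables of 37980 genes. Each holds FPKM values, 1 per gene and group, normalized within its table per the file headers. The deposited log2 fold change was read as the second group over the first. The deposited test statistic is a score of Cuffdiff. Cuffdiff also gave each deposited p-value and q-value, q matching a Benjamini-Hochberg adjustment over the 17203 to 17464 genes with status OK to within 1e-06. Depth per sample is unknown, and no column of another sample was used.

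A gene was called at status OK and q of at most 0.05. Standard errors were recovered by dividing each log2 fold change by its statistic, and 95% intervals are normal. Injury and desipramine responses were compared as the difference of their log2 fold changes, whose variance is the sum of both squared standard errors. Their 2-sided normal p-values were adjusted by Benjamini-Hochberg over genes of at least 1 FPKM in all groups. The computation was tested on simulated data, which cannot show whether the recovered standard errors are right for Cuffdiff. Normal intervals and Cuffdiff's own p-values can disagree. For Bdnf with injury labelled WT the interval, -2.18 to 0.03, spanned both signs, while Cuffdiff gave a low unadjusted p-value, printed above. Differences between responses rest on these errors, so one that did not pass does not show equal responses. To describe levels over all groups, each table was scaled by 1 factor (0.980 to 1.01). Overlapping genes were found from the mm9 coordinates that the deposited tables list for each gene. The limma fit planned for per-sample values was not run, as no table has them. Members, lists, tests and alternatives were chosen with earlier results of these data known. Named genes were the 7 members, called list genes up to 4 per list and comparison, and the 5 genes closest to Ngfr and to Bdnf; Pvalb and uncalled genes of the ligand, receptor and cholinergic lists were named after their values were seen, and some list genes are not reported here. Alternatives were a stricter q, a normal p from the test statistic, that p after centring on the median, a filter of 1 FPKM, adjustment over all 7 tables, other pseudocounts and other table factors. Python 3.11.15, pandas 2.3.3 and scipy 1.17.1 were used.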

Additional observations from a re-analysis of the deposited data

How the results depend on the processing

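No paired analysis was possible because the deposited tables hold 1 value per gene and group; for the same reason no replicate could be left out. Of the 5 member calls, those of Bdnf in naive mice and of Ngfr with injury fell to 0 called members per table at q of at most 0.01. In the injury table labelled KO the lowest q of any gene was 0.0128, so no call could remain there. On a normal p from the test statistic, with or without centring on the median, 0 members were called in each table except the injury table labelled KO, where Ngfr was called. Adjusted over all 7 tables, 1 member, Vgf, was called with desipramine labelled WT. For the 165 pathway genes, that normal p with centring left 0 calls between labels in naive and in saline mice, 1 in desipramine mice, 0 and 1 with injury labelled KO and WT, and 0 with desipramine under both labels. The normal p alone left 0 in saline mice, 1 in desipramine mice, 0 and 3 with injury labelled KO and WT, and 0 with desipramine under both labels. At q of at most 0.01, 0 remained in saline mice, 1 in desipramine mice, 0 with injury labelled KO and 0 with desipramine labelled WT, where a filter of 1 FPKM left 1. The counts of 0 were fixed in advance. The lowest q of any gene was 0.0170 in saline mice, 0.0128 with injury labelled KO and 0.0279 with desipramine labelled WT. Adjustment over all 7 tables gave 5 in saline mice. No log2 fold change turned its sign, and centring alone moved none beyond its standard error. A pseudocount of 1 gave 1.43 for Ngfr with injury labelled KO and -0.52 for Bdnf between labels with desipramine. The depth behind the low levels of Ntf3, Bdnf and Ngfr is unknown, and the cause of these changes was not tested.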
